A study of Mus musculus with 6 samples.

Results

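The regions described here are the stretches of H3K9me3 in 10 arrays of odorant receptor genes that lie outside the large receptor clusters of chromosomes 2, 7 and 9. Membership was set by position alone, in windows that were chosen with earlier results of these data known. An island of H3K9me3 was a member when its midpoint fell in 1 of 10 mm9 windows on chromosomes 1, 6, 10, 11 (3 windows), 14, 16, 17 and 19, which together span 17.5 Mb. Below, values of the 4 libraries are given in the order control 1, control 2, mutant 1, mutant 2. Members numbered 278, 406, 305 and 201 islands, that is 1190 of the 12565 islands of the series. Joined where they overlapped between libraries, they made 327 of 5845 regions.

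The study asked whether loss of lamin B1, a protein of the nuclear lamina, changes this heterochromatin mark in the olfactory epithelium. H3K9me3 was measured by FARP-ChIP-seq, a chromatin immunoprecipitation method for few cells, in 2 Lmnb1+/- control mice and 2 Lmnb1-/- mutant mice, with 1 library per mouse and about 500000 sorted Tomato-positive cells in each. All 4 mice carried K5Cre, in which the keratin 5 promoter drives Cre in horizontal basal cells, the reserve stem cells of this tissue, together with a tdTomato reporter at R26. Controls were K5Cre;Lmnb1 fl/+ and mutants K5Cre;Lmnb1 fl/fl, on a mixed background, and littermates were matched for age and sex. Methimazole, which destroys the epithelium, was given at 50 mg per kg, by the study's methods as 2 injections to mice 2 to 3 months old. The tissue then regrew for 4 weeks from the marked stem cells and from other, unmarked ones, and the sort kept the Tomato-positive cells. The sorted cells are a mixture of stem cells, progenitors, neurons and supporting cells, and a few of them can still hold lamin B1. In such a mixture, fewer cells that carry the mark and less of the mark per cell cannot be told apart. Control 1 and mutant 1 were littermates, as were control 2 and mutant 2. No expression was measured in these libraries, so the genotype labels and the cell types were not checked against genes here.

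Each olfactory sensory neuron expresses a single allele of a single odorant receptor gene. The other receptor genes, which stand in arrays on many chromosomes, are packed into heterochromatin that carries H3K9me3 and H4K20me3 and is drawn together inside the nucleus. H3K9me3 is laid down by histone methyltransferases and bound by HP1 proteins, and it marks silent chromatin that is inherited through cell division.

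In the mouse reference at hand, which is GRCm38 and not mm9, RefSeq genes named Olfr form exactly 10 runs of at least 15 genes on these 8 chromosomes, when a run may hold up to 10 other protein-coding genes between neighbours. These limits were chosen after the runs had been seen. There is 1 run for each window in the order of the windows along each chromosome, and 23 smaller runs. The runs were tied to the windows by this order only, since coordinates of the 2 builds cannot be combined. Whether a window reaches past its run was not tested. Values given below for an array are those of its whole window. They hold 409 receptor genes, of which 322 are protein-coding. The largest is that of chromosome 19, with 91 genes from Olfr1417 to Olfr1505 between Stx3 and Tle4. Chromosome 10 has 69 genes (Olfr9 to Olfr827, between Mettl7b and Neurod4). On chromosome 17, 58 genes (Olfr90 to Olfr136) lie between Gabbr1, a GABA-B receptor subunit, and Esp36, and H2-M3 and H2-M2 of the major histocompatibility complex stand among them. The 3 arrays of chromosome 11, called proximal, middle and distal here, hold 19, 23 and 44 genes. Chromosome 16 has 32 genes, chromosome 14 has 28, chromosome 6 has 27 and chromosome 1 has 18.

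Promoters of 276 of these genes are in the RefSeq table for GRCm38.p6. They were rich in A and T, which made up 65.0% of the 250 bases before the start against 46.8% over all 32851 promoters. The hexamer TATAAA was found on either strand, anywhere in the 250 bases, in 94 of the 276 (34.1%, against 12.4% of all promoters). Matches were not limited to the strand or position of a TATA box. TAATTA, the core that homeodomain proteins such as LHX2 bind, was found in 48 (17.4%, against 4.84%). The EBF-like core CCCNNGGG was rarer, in 6 (2.17%, against 11.8%). In the 672 promoters of other Olfr genes, A and T made up 65.4%. There the shares were 41.4% for TATAAA, 18.3% for TAATTA and 2.98% for CCCNNGGG. How often base composition alone would give these motifs was not worked out, so the shares do not measure enrichment or depletion. The first gene in order that holds both TATAAA and TAATTA in each of the 3 arrays with the highest coverage is shown, as an example of receptor promoters in these arrays. Only 14 of the 276 hold both, and whether an island covers these 3 promoters was not tested. The 250 bases before the start read 5′ to 3′ on the strand of the gene, and capitals mark TATAAA, its reverse complement TTTATA, and TAATTA, which is its own reverse complement:
Olfr770 (chromosome 10, minus strand): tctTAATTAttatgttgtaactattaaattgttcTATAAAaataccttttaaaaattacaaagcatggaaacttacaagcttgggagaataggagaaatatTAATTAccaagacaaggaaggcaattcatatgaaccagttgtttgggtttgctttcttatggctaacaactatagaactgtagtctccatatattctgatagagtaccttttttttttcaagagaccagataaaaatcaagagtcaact
Olfr123 (chromosome 17, plus strand): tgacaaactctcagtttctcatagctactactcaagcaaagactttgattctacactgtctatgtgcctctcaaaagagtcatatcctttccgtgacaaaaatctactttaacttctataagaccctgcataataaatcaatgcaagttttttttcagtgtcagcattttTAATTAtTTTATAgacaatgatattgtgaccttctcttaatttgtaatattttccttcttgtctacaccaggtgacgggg
Olfr1444 (chromosome 19, plus strand): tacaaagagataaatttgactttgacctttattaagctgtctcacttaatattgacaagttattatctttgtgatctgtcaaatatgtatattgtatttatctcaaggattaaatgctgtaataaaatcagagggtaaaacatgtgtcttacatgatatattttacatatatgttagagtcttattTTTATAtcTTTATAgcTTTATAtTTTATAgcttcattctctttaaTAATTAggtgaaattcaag
The letters alone do not show that a factor binds there, and no island was assigned to a single gene.

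The deposited value of an island is its SICER score, which sums over windows of 200 bp how improbable their reads are given the average of that library. It rises with depth, with enrichment and with length. From islands of 2 windows the average was worked out as 1.41, 2.54, 1.43 and 2.18 reads per window. Coverage, the share of a window's length that islands occupy, was used as the main measure, with the score per covered kb beside it. Coverage rests on the same called islands, so it is not free of depth or enrichment either. Reads that map to more than 1 place were left out by the authors, so nearly identical receptor genes can appear empty.

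The arrays stood out from the DNA beside them in every library. Islands covered 19.6%, 23.7%, 22.4% and 12.6% of the summed length of the 10 windows. The 1 Mb flanks on either side were covered to 1.91%, 3.29%, 2.68% and 1.39%. The arrays were thus 17.3 ± 4.18 percentage points above their flanks (SD, n = 4 libraries, higher in 4 of 4, p = 0.125 by an exact two-sided test over signs, the smallest p it can give). Coverage was 7.20 to 10.3 times that of the flanks. In the score per kb of window, the ratio of arrays to flanks was 9.50 to 12.3. Each of the 10 arrays was above its own flanks in each library, 40 of 40 comparisons.

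The arrays differed widely from each other, and they did so in nearly the same order in all 4 mice. The array of chromosome 10 (chr10:128200001-129800000) was covered most, to 40.7%, 46.1%, 42.8% and 32.8%. Chromosome 17 (chr17:37000001-38700000) followed with 35.5%, 41.9%, 41.5% and 22.6%. Chromosome 19 (chr19:11800001-14000000) had 34.0%, 38.3%, 35.1% and 16.5%. In these 3 arrays mutant 2 was the lowest library and control 2 the highest. The distal array of chromosome 11 (chr11:73000001-74400000) had 26.4%, 33.6%, 31.4% and 16.4%, and chromosome 6 (chr6:42300001-43600000) had 25.9%, 28.1%, 27.2% and 13.6%. Chromosome 1 (chr1:175900001-177100000) had 12.7%, 17.4%, 17.3% and 12.7%. It was the only array in which control 1, by a narrow margin, and not mutant 2 was the lowest. Chromosome 16 (chr16:58500001-59800000) had 9.95%, 17.4%, 15.2% and 6.49%. The proximal array of chromosome 11 (chr11:49000001-51000000) had 7.54%, 9.73%, 8.84% and 4.75%, and chromosome 14 (chr14:49800001-53200000) had 4.88%, 9.05%, 8.15% and 4.69%. The middle array of chromosome 11 (chr11:58400001-59800000) had 8.80%, 6.16%, 7.33% and 2.91%, and was the only array in which control 1 was the highest library.

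Ranked within a library, 7 of the 10 arrays held the same place in all 4 libraries, from chromosome 10 in first place down to chromosome 16. The 3 least covered arrays kept 1 order in 3 libraries, and in control 1 the middle array of chromosome 11 moved ahead of the other two. The ranges over the 4 libraries overlapped for all 9 pairs of neighbours in this order. These ranges include the differences between libraries, so they do not measure how neighbours differ within a library. Within a library, 8 of the 9 pairs kept their direction in all 4.

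**Figure D1:**
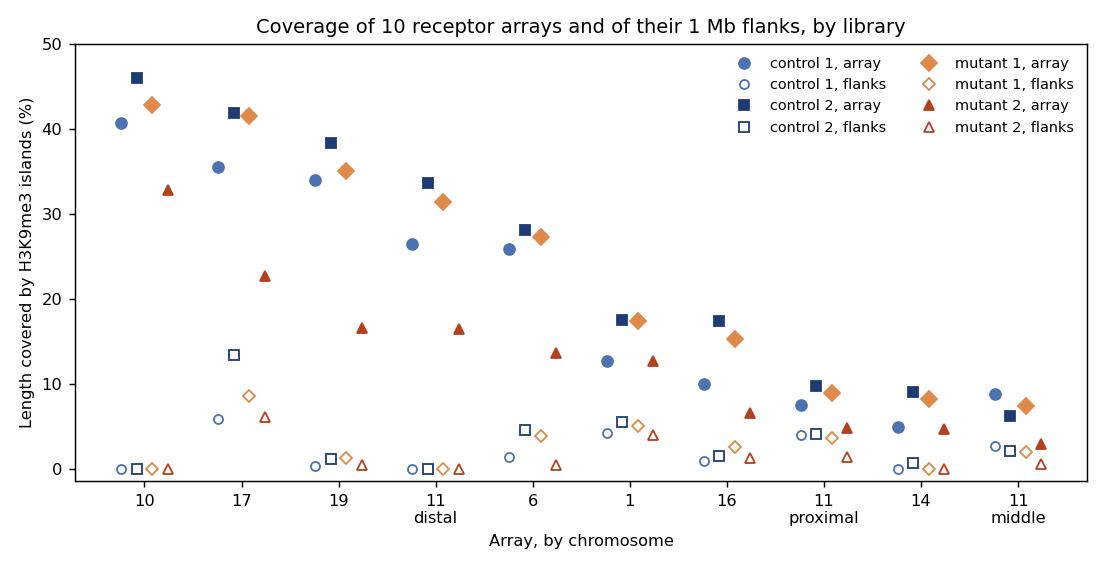
Percent of length covered by H3K9me3 islands (vertical axis) in each of the 10 arrays (filled symbols) and in their 1 Mb flanks (open symbols), 1 symbol per library, with arrays ordered by their mean. Each filled symbol lies above the open symbol of the same library, and mutant 2 is the lowest library in 9 of the 10 arrays.

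Coverage was higher in arrays where receptor genes stand more densely. The array of chromosome 10 holds 43.1 Olfr genes per Mb of window, that of chromosome 19 holds 41.4 and that of chromosome 17 holds 34.1, and these were the 3 most covered. The proximal array of chromosome 11 and the array of chromosome 14, with 9.50 and 8.24 genes per Mb, were among the 3 least covered. Over the 10 arrays, Pearson's r between gene density and mean coverage was 0.91 and Spearman's rho 0.87. Without the 2 arrays farthest from the median density, r was 0.86 over 8 arrays. In single libraries r ran from 0.83 in mutant 2 to 0.92 in control 2. This is a description, since the points share libraries, both measures are divided by the same window length, and the gene counts come from the other build.

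Per receptor gene the arrays were more alike than their coverage. On average over the libraries, islands covered 7.48 to 11.4 kb per gene in 8 arrays, with a median of 8.35 kb over all 10. The middle array of chromosome 11 had 3.83 kb per gene and chromosome 16 had 4.98 kb. Both lay below the other 8, although chromosome 16 is not poor in genes, with 24.6 per Mb. Islands past the run, where a window holds any, are counted in these values.

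**Figure D2:**
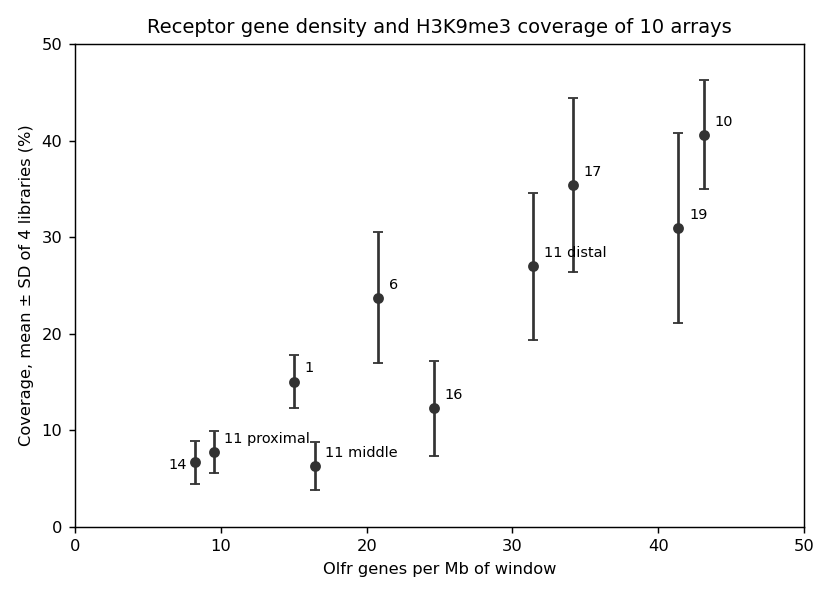
Receptor genes per Mb of window (horizontal axis, Olfr genes of the matching GRCm38 run over the mm9 window length) against H3K9me3 coverage (vertical axis, mean with SD over 4 libraries), 1 point per array. Coverage rises from 6.69% at 8.24 genes per Mb on chromosome 14 to 40.6% at 43.1 genes per Mb on chromosome 10, with chromosome 16 low for its density.

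Islands did not fill the windows evenly. Of 175 bins of 100 kb inside the windows, 26 were covered to 50% or more on average and 69 held no island in any library. The array of chromosome 10 had 7 of the 26 and chromosome 19 had 8, while the proximal and middle arrays of chromosome 11 and the array of chromosome 16 had 0. On chromosome 10, islands ran from 128404001 to 129654400, and the longest empty stretch between them was 55.8 kb.

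Other windows held separate blocks. In the window of chromosome 14, islands lay up to 51381000 and again from 52992801 on, and the 1611.8 kb between held no island in any library. The window of the proximal array of chromosome 11 had blocks on either side of an empty stretch of 1055.8 kb (chr11:49564201-50620000). On chromosome 1, all islands of control 1, mutant 1 and mutant 2 ended by 176375400, 666.6 kb before the single small block of control 2 near the far end of the window. Chromosome 19 was split by 432.2 kb (chr19:12469801-12902000), and in the GRCm38 order its run of receptor genes is also interrupted by 12 other genes, among them the enzyme gene Glyat, the neurotrophic factor gene Cntf and Zfp91. Whether these genes lie in the empty stretch was not tested, because no mm9 annotation was used. For the same reason it was not tested which of the separate blocks hold receptor genes.

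**Figure D3:**
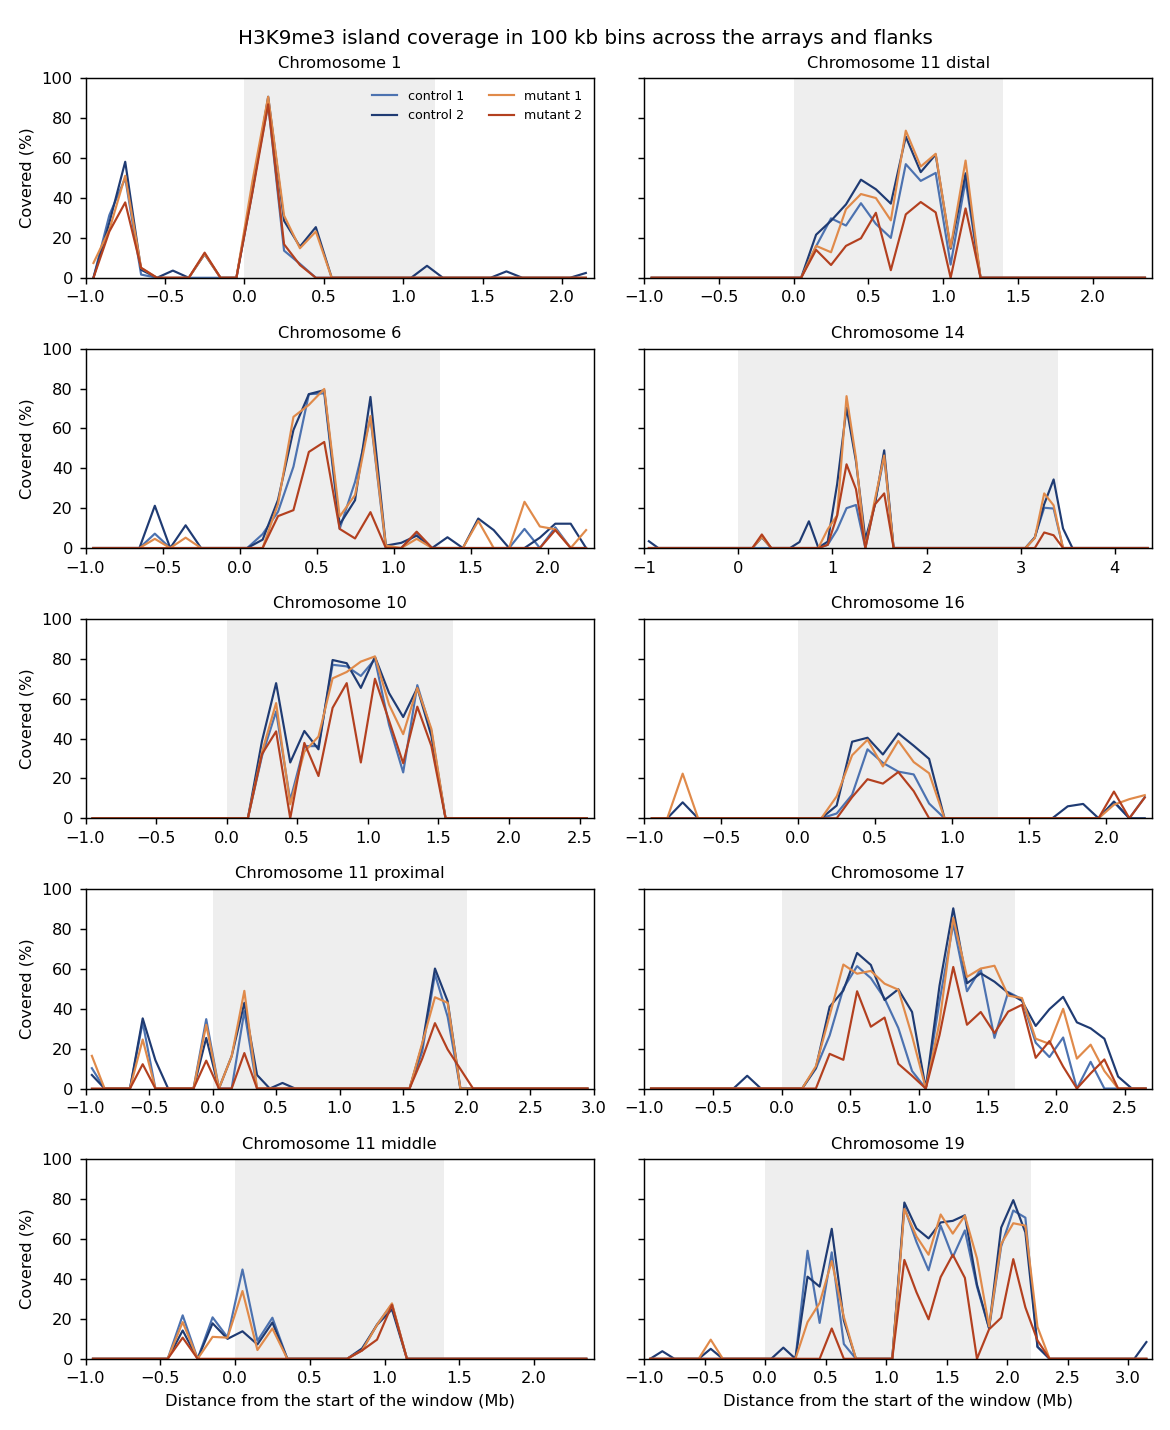
H3K9me3 island coverage (vertical axis, percent of each 100 kb bin) against distance from the start of the window (horizontal axis, Mb) for the 10 arrays, with 1 Mb of flank on either side, the window in grey and 1 line per library. Many peaks and gaps stand at the same places in the 4 libraries, but some blocks are absent from some libraries. In chr19:13500001-13600000 mutant 2 is at 0, and control 1, control 2 and mutant 1 are at 36.2%, 37.2% and 50.4%. In chr1:176300001-176400000 control 1 and mutant 2 are at 0, control 2 is at 25.4% and mutant 1 at 23.2%. The line of mutant 2 is mostly the lowest, and the flanks of chromosomes 10 and 11 distal are at 0.

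Edges also differed. Of 20 sides, 6 had no island within 1 Mb in any library. These were both sides of chromosome 10, both sides of the distal array of chromosome 11 and the right sides of its proximal and middle arrays. By contrast, the 1 Mb to the right of the window of chromosome 17 was covered to 11.6%, 26.1%, 17.2% and 12.0%. There the mark ran on past the window. The left side of chromosome 1 was covered to 7.86 to 10.5%, and that of the proximal array of chromosome 11 to 2.62 to 8.16%.

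The region with the highest score in its weakest library, in any array, was on chromosome 1 (chr1:176025001-176093200, 68.2 kb). Its summed score was 1277, 2070, 1837 and 1272. It lay in the most covered bin of all windows, which islands filled to 87.0%, 90.8%, 90.8% and 87.0%. The genotypes overlapped there in both measures. A region of chromosome 10 (chr10:129189001-129244000, 55.0 kb) came next, with scores of 1340, 1983, 1645 and 1097. The strongest region of the proximal array of chromosome 11 (chr11:50767401-50826200) scored 1156, 1510, 1200 and 670. In both of these the 2 mutants lay on either side of control 1. The strongest region of chromosome 14 (chr14:50971601-51040800, 69.2 kb, the longest of all) scored 397, 1385, 1271 and 463. Here control 2 and mutant 1, which had the most islands, stood far above control 1 and mutant 2, so the high and the low libraries each held both genotypes.

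In the remaining 6 arrays the same pattern held for the strongest region, with control 2 or mutant 1 highest and mutant 2 lowest. The lowest-of-4 score was 604 on chromosome 6 (chr6:42810401-42843200), 570 on chromosome 19 (chr19:13865201-13914800) and 557 in the distal array of chromosome 11 (chr11:74133201-74186200). It was 508 on chromosome 17 (chr17:38241201-38275000), 358 in the middle array of chromosome 11 (chr11:59382201-59420600) and 293 on chromosome 16 (chr16:59179801-59197800).

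Joined regions recurred between mice. Of the 327, 136 had an island in all 4 libraries (41.6%, against 17.2% of all 5845 regions of the series and 56.9% in the clusters of chromosomes 2, 7 and 9). The share was 53.2% on chromosome 10 and 50.9% on chromosome 17, and 27.3% in the middle array of chromosome 11. A further 75 were found in 3 libraries, 45 in 2 and 71 in 1. Of those 71, 60 were found in control 2 alone, the library with the most islands. Member regions were long, with a median of 11.2 kb against 6.8 kb for regions outside these arrays and the clusters of chromosomes 2, 7 and 9, and a longer region has more room to overlap an island. In those clusters the median was longer still, 12.6 kb.

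Islands of the arrays were also longer than the rest of their own library, by 1.75 ± 0.526 kb in the median (SD, n = 4 libraries, longer in 4 of 4, p = 0.125 by an exact two-sided test over signs, the smallest p it can give). Their medians were 10, 7.8, 10.4 and 9.2 kb. In the clusters of chromosomes 2, 7 and 9 the medians were longer still, 10.6, 9, 11 and 10 kb, so this length was not particular to the arrays.

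Bases covered in mutant 2 were almost a subset of those in its littermate. Of the bases that mutant 2 covered in the windows, 94.7% were covered in control 2, while 50.5% of those in control 2 were covered in mutant 2. Shared bases made up 69.9% of those covered in either library of pair 1 and 49.1% for pair 2. The 2 controls shared 66.8% and the 2 mutants 51.2%. Control 2 and mutant 1 shared the most, 74.1%, and control 1 and mutant 2 shared 53.3%. The 3 comparisons with mutant 2 were thus the 3 lowest, whatever the genotype. Mutant 2 also covered the least of the windows, 12.6%, which limits the share it can have in common with a fuller library. How far its bases lay within control 1 or mutant 1 was not worked out. The containment is thus not shown to be particular to the littermate.

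The comparison of genotypes gave no difference beyond the spread between mice. Islands covered 21.7 ± 2.92% of the windows in controls and 17.5 ± 6.89% in mutants (SD, n = 2 each), so mutants minus controls came to -4.15 points (p = 0.667, two-sided exact permutation test). With 2 libraries against 2 this test can give no p below 0.333, and so no single value could reach 0.05. The 2 littermate pairs went in opposite directions. Mutant 1 was 2.79 points above control 1, while mutant 2 minus control 2 was -11.1 points, more than the SD of either group. Without mutant 2 the difference was 0.72 points, so its sign rests on that library.

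The same opposition ran through nearly all arrays. Mutant 1 was covered more than control 1 in 9 of 10 arrays, the middle array of chromosome 11 being the exception. Mutant 2 was covered less than control 2 in 10 of 10. The largest difference of group means was that of chromosome 19, at -10.4 points, with 1.09 points in pair 1 and -21.8 points in pair 2. It was -6.66 points on chromosome 17, -6.58 on chromosome 6, -6.09 in the distal array of chromosome 11 and -5.55 on chromosome 10. On chromosome 1 the group means differed by -0.04 points. In none of the 10 arrays did the genotypes separate without overlap, and p was 0.667 or 1 in each by the exact permutation test. The order control 2, mutant 1, control 1, mutant 2 did not follow the reads per window, where mutant 2 was second. The number of islands in the whole library, 2038, 5658, 2905 and 1964, had that order. With the 1964 highest islands of each library, the difference over all windows was -2.84 points in place of -4.15, and the mutant mean was lower in 8 arrays in place of 10.

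**Figure D4:**
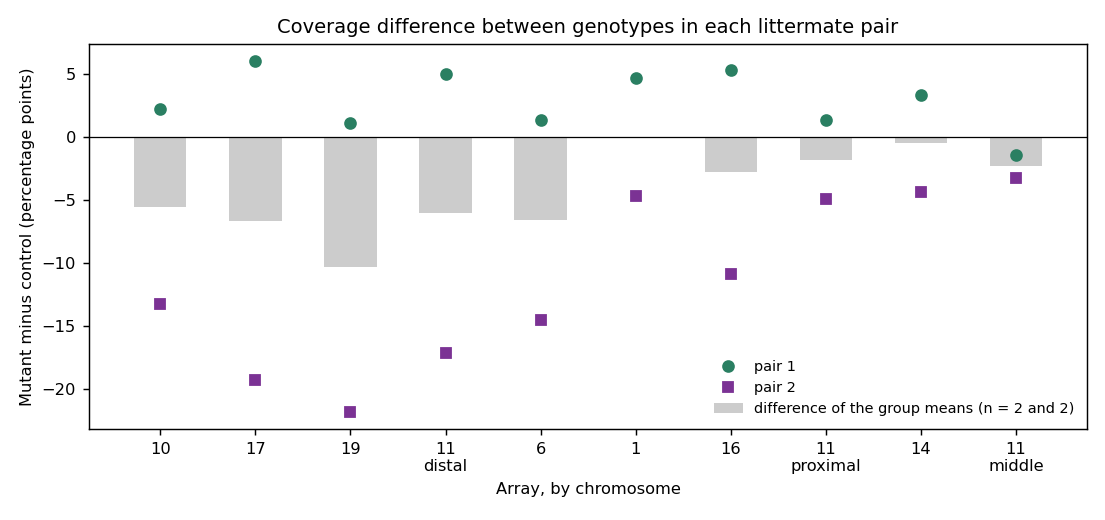
Coverage of the mutant minus that of the control (vertical axis, percentage points) in each array, as the difference of group means (grey bars) and within pair 1 (circles) and pair 2 (squares). Pair 1 lies above 0 in 9 of 10 arrays and pair 2 below 0 in all 10, down to -21.8 points on chromosome 19.

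Scores per covered kb and per kb of window went in the same direction as coverage within each pair. Shares of everything called in a library did not follow coverage in both pairs. The score per covered kb in the arrays was 17.5, 24.2, 20.8 and 16.3, a log2 ratio of mutants to controls of -0.17 (exact permutation test, p = 0.667). The score per kb of window was 3.43, 5.75, 4.67 and 2.06, a log2 ratio of -0.45 (p = 0.667 in the same exact test). Taken within pairs, the replicate block, the ratio of the latter was -0.52, from 0.44 in pair 1 and -1.48 in pair 2. As a share of everything called in a library, the arrays held 16.1%, 10.5%, 13.1% and 12.2% of all covered bp, and the log2 ratio of the means was -0.07 (exact permutation test, p = 1). It was -0.29 in pair 1 and 0.21 in pair 2, and -0.25 with equal numbers of islands. The arrays held 13.2%, 10.1%, 12.2% and 8.55% of all score. The log2 ratio of this share was -0.17 (exact permutation test, p = 0.667). It was below 0 in both pairs, -0.11 and -0.24. Control 2, with the most islands, had the lowest share of covered bp.

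The excess over the flanks gave the same answer as coverage. Arrays were above their flanks by 17.7, 20.4, 19.7 and 11.2 points. The difference between genotypes in this excess was -3.58 points (exact permutation test, p = 0.667), and again it was above 0 (0.64 points) without mutant 2.

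Region by region, no member passed the test. Of the 327 joined regions, 256 were found in at least 2 libraries and were tested with limma on the log2 scale of score plus the smallest island score, 64.7. None had an adjusted p under 0.05 (limma, Benjamini-Hochberg over all 2803 regions tested), where 1 region, or 0.0357%, passed in the whole series. The smallest adjusted p of a member was 0.815. At an unadjusted limma p under 0.05 there were 5 of the 256 members, all lower in mutants. Over all regions tested there were 163 of 2803 (5.82%), of which 110 were lower. In the clusters of chromosomes 2, 7 and 9 there were 4 of 278, of which 3 were lower. Fitted ratios were below 0 in 179 of the 256, or 69.9%, against 42.5% of all tested. In the clusters of chromosomes 2, 7 and 9 the share was 69.1%, so this lean was not particular to the members. Without scaling of the libraries, 84.4% of members were below 0. The median ratio was -0.18 in members, -0.12 in those clusters and 0.08 over all regions on the same log2 scale. Unscaled it was -0.36 in members and -0.11 over all regions. Leaving out each library in turn, from 51.2% (without mutant 2) to 81.2% (without mutant 1) of members were below 0.

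After scaling, both mutants lay below both controls in 74 of the 256 (28.9%, against 17.2% of all regions tested), and above both in 11 (4.30%, against 11.5%). In the clusters of chromosomes 2, 7 and 9 these shares were 24.8% and 5.40%. Among the 136 members found in all 4 libraries, the median ratio was -0.12 on the log2 scale, against 0.00 over all 1008 such regions. The latter is held close to 0 by the scaling, which gave the libraries an equal median over these same regions.

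Regions that held islands of the 2 controls but of no mutant numbered 9 among the members (2.75%, against 3.20% of all 5845), and the reverse in 0 (against 0.565%). Of the 9, 5 were on chromosome 19. The highest summed scores were those of chr19:12163401-12180400 (146 in control 1 and 82.7 in control 2), chr14:53172601-53176400 (127 and 102), chr19:12104801-12119400 (81.9 and 143), chr19:13830401-13834800 (90.8 and 121) and chr6:43164201-43174600 (125 and 76.0). The lowest score that SICER reported was 78.8, 64.7, 81.0 and 86.1, so a region listed as empty can hold signal under these limits.

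The clusters of chromosomes 2, 7 and 9, which together span 8.9 Mb, were covered more densely. Islands covered 48.8%, 55.8%, 55.2% and 36.1% of them. The 10 arrays lay 29.4 ± 4.25 points below (SD, n = 4 libraries, lower in 4 of 4, p = 0.125 by an exact two-sided test over signs, the smallest p it can give). Within islands the gap was small, and the score per covered kb of the arrays was lower by 0.488 to 2.25 in the 4 libraries. The genotype difference in this gap was 2.53 points (exact permutation test, p = 1), and it was -2.16 points without mutant 2.

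H3K4me3, the mark of active promoters, was measured in control 1 and mutant 1 only, as peaks with a MACS score, so its values have no replicate. The windows held 122 peaks in control 1 and 133 in mutant 1, or 6.97 and 7.60 per Mb, against 8.65 and 9.85 per Mb in the flanks. All but 7 of the 122 overlapped a peak of mutant 1. Most lay in 3 of the windows. The middle array of chromosome 11 held 24 and 27 peaks, the proximal array 24 and 25, and chromosome 14 held 26 and 31. The runs of receptor genes tied to these windows hold 3, 3 and 1 other protein-coding genes. Whether the peaks lie inside or past the runs was not tested. The distal array of chromosome 11 held 2 and 3, chromosome 1 held 3 and 3, and chromosome 10 held 5 and 6, although its flanks held 33 and 35.

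The active and the silent mark stood apart within the windows. In 100 kb bins without H3K9me3, peaks numbered 13.5 per Mb in control 1 and 14.1 in mutant 1. In bins covered to 50% or more, there was 1 peak in 26 bins in either library, 0.385 per Mb. Peaks that overlapped an island of the same mouse numbered 3 of 122 in control 1 and 5 of 133 in mutant 1. The share over all peaks of a library was not worked out. In the clusters of chromosomes 2, 7 and 9 such peaks numbered 0 of 4 in control 1 and 9 of 12 in mutant 1. Peaks were sparser in those clusters, 0.449 and 1.35 per Mb, and the 12 of mutant 1 had a median score of 61.5. Of the 122 control peaks in the windows, 5 overlapped an island of any of the 4 libraries, on chromosomes 6 and 17. The 2 that met an island in all 4 libraries, chr6:42771192-42771861 and chr17:38685383-38686244, had low scores in control 1, 53.6 and 73.9, close to the lowest score in the lists, 50, and overlapped no peak of mutant 1.

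Judged by the lower of the 2 scores, the highest peaks were chr11:50189867-50193555 (2603 in control 1 and 3100 in mutant 1), chr14:52722140-52724678 (2537 and 3172), chr19:12870013-12871957 (2326 and 3100), chr16:59637609-59639847 (2425 and 2205) and chr11:49015821-49018343 (2135 and 3004). None overlapped an H3K9me3 island in any library. The first 3 lay in the empty stretches of the proximal array of chromosome 11, of chromosome 14 and of chromosome 19.

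**Figure D5:**
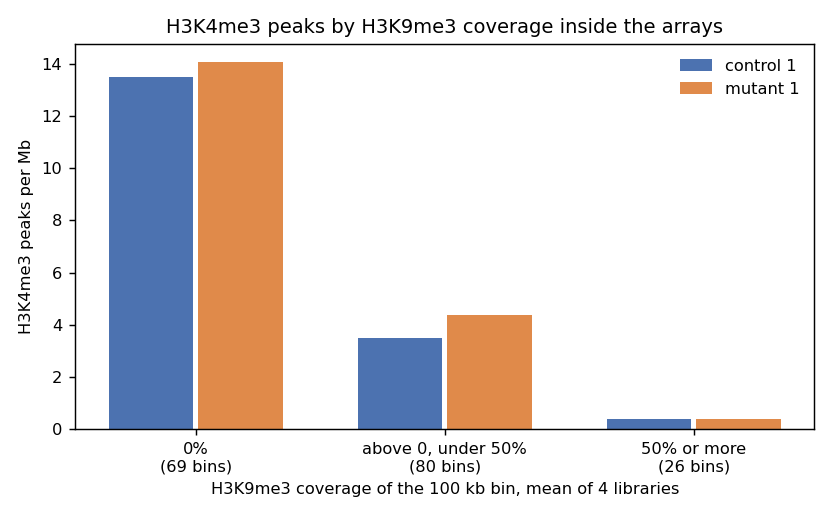
H3K4me3 peaks per Mb (vertical axis) in 100 kb bins of the 10 windows, grouped by mean H3K9me3 coverage of the bin (horizontal axis), for control 1 and mutant 1, with 1 library per bar. Both libraries fall from over 13 peaks per Mb in bins at 0% to 0.385 in bins of 50% or more.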

How the data were processed

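The authors mapped reads to mm9 with bowtie, keeping unique alignments with at most 2 mismatches, and called islands in each H3K9me3 library separately with SICER. The deposited values are the score of each island and, for H3K4me3, the MACS score of each peak. The authors did not scale them between libraries. Read counts on merged peaks, which the study compared with edgeR, are not used here, nor is an input library. All 12565 islands have lengths that are multiples of 200 bp, and ends were read as the last base.

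Computed here were coverage, score per kb and joined regions, for islands taken whole by their midpoint. Single values were compared by exact permutation tests over the 6 assignments of 2 of 4 libraries, or over the 16 sign patterns of differences within libraries. For regions found in at least 2 libraries, limma 3.58.1 under R 4.3.3 (lmFit, eBayes) was fitted to log2(score + 64.7) after the libraries had been given an equal median over regions found in all 4. Fold changes on this scale understate changes of weak regions. The remaining work was done in Python 3.11.15 (numpy 2.4.6, pandas 2.3.3, matplotlib 3.10.9). On simulated data the interval measures passed 203 of 203 checks. With 200 of 2803 regions shifted by 2 on the log2 scale, limma found 178 with 7 false calls, and 7 when shifted by 1.

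Same-numbered libraries are paired, since the paper describes littermates and the labels give them the same methimazole group (3 or 4). Their deviations from the genotype means did not move together (r = -0.27 over the 1008 regions found in all 4). Limits of the clusters of chromosomes 2, 7 and 9 were read from drawn gene bars in the study, rounded to 0.1 Mb. Named were all 10 windows, the region with the highest lowest-of-4 score in each, regions past the threshold, at most 5 regions found in 1 genotype only, and at most 5 H3K4me3 peaks with the highest lower score. The members, windows and lists were chosen with earlier results of these data known.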

Additional observations from a re-analysis of the deposited data

How the results depend on the processing

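The excess of the arrays over their flanks and their lower coverage than the clusters of chromosomes 2, 7 and 9 kept their direction under every alternative run for them. These were islands clipped at the window limits, islands scoring at least the pooled median (108), the 1964 highest islands of each library, each library left out, and flanks of 0.5 and 2 Mb for the former. Leaving out each library in turn, the former ran from 16.2 to 19.3 points and the latter from -31.4 to -28.2.

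Differences between genotypes depended on single libraries, and the cause was not tested. Leaving out each library in turn, coverage ran from -9.02 to 0.72 points, the log2 ratio of score per kb from -1.16 to 0.024, that of score per covered kb from -0.38 to 0.086 and that of the share of covered bp from -0.35 to 0.26. The excess over flanks ran from -7.81 to 0.64 points, and the difference from the clusters from -2.16 to 7.21. The value above 0 came without mutant 2 for coverage, score per kb and flanks, without control 2 for score per covered kb, and without control 1 for the share of covered bp. The number of arrays with a lower mutant mean was 10, and ran from 3 (without mutant 2) to 10, with 8 at least the pooled median score and with equal numbers of islands. Single arrays turned to a higher mutant mean on chromosomes 1 and 14 with islands at least the pooled median score (0.55 and 0.53 points) and with equal numbers (0.52 and 0.57). Leaving out a library, the ranges were -2.42 to 2.34 points on chromosome 1, -13.4 to 0.22 on chromosome 6, -3.88 to 0.20 and -13.6 to 1.41 in the proximal and distal arrays of chromosome 11, -2.63 to 1.54 on chromosome 14, -7.18 to 1.53 on chromosome 16 and -16.1 to 2.76 on chromosome 17. On chromosomes 10 and 19 and in the middle array of chromosome 11 they stayed below 0.

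With the replicate block, coverage differed by -4.15 points, the excess over flanks by -3.58, score per covered kb by a log2 ratio of -0.16 and share of covered bp by -0.04, and 0 member regions passed. The block changed no call. With the crossed pairing (control 1 with mutant 2), added after the data were seen, 0 members passed too. With a pseudocount of 1 in limma, 5 member regions passed among 189 in all. They were chr10:128666801-128675800, chr14:53172601-53176400, chr19:12104801-12119400, chr19:12973801-12979000 and chr19:13830401-13834800, each with an island in the 2 controls and in no mutant, so their ratios rest on the pseudocount. With the other limma settings 0 members passed. Depth limits what weak islands show, since a region under the reporting limit of a library is listed at 0.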
